A study of Mus musculus with 8 samples.

Results

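Glo1, Dnah8, Btbd9 and Glp1r are 4 neighbouring genes of mouse chromosome 17. They were taken as the probe sets that the platform annotation gives to exactly 1 of these symbols, which found 5 probe sets (2 for Glo1 and 1 for each other gene) among 21640 with 1 symbol, or 4 of 19937 genes. They were chosen by the IIKO against WT difference of Glo1 and Dnah8 in these same arrays, with Btbd9 and Glp1r added as the genes beside them. Their levels were compared in regulatory T cells (Tregs), a CD4+ lineage that holds immune reactions in check, in 4 samples from WT chimeras and 4 from IIKO chimeras. All recipients were CD3ε-/- mice, which lack part of the CD3 complex of the T cell receptor (TCR) and form no T cells of their own. They were lethally irradiated and given marrow of WT mice (WT-CD3KO chimeras) or of IIKO mice (IIKO-CD3KO chimeras). At day 28, CD4+ TCRβ+ CD25+ cells were enriched on magnetic beads and sorted from peripheral lymph nodes and spleen. Labelling used 100 ng of total RNA for each of 8 Affymetrix arrays, with C57BL/6 given as the strain of every sample and 6 to 8 weeks as the age. The labels say that Tregs of IIKO-CD3KO chimeras are without peripheral interactions of their TCR with class II molecules. The sample titles call the samples of each group biological replicates 1 to 4. The labels name neither the disrupted gene nor the number of mice behind a sample. A p-value therefore reflects the spread between the samples, which may be partly technical. Marrow donor and class II contact cannot be told apart in this design.

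Glo1 encodes glyoxalase 1, the glutathione-dependent enzyme that begins the removal of methylglyoxal, a reactive by-product of glycolysis. Dnah8 encodes a dynein heavy chain of the axoneme, the motor core of cilia and sperm tails. Btbd9 encodes a BTB-domain protein that serves cullin 3 ubiquitin ligases and has been linked to iron handling. Glp1r encodes the receptor for the gut hormone GLP-1. As further background, some inbred mouse strains carry a duplicated segment of chromosome 17 that contains Glo1, and strains differ in Glo1 expression. Copy number and donor genotype were not measured here, and their part in the results was not tested.

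The reference (RefSeq, GRCm38.p6) places the genes in the order Btbd9, Glo1, Dnah8, Glp1r. Another 6 reference entries, pseudogenes and noncoding RNAs, start between Btbd9 and Glp1r, and 0 of them had a tested probe set. Glo1 lies on the minus strand and Dnah8 on the plus strand, so their starts face away from each other. The windows before those starts are shown because these 2 genes were chosen for their difference between the groups. Each is the first 250 bases of the RefSeq promoter entry, 5′ to 3′ on the gene's own strand, at chr17:30612660-30612909 for Glo1 and chr17:30626686-30626935 for Dnah8. Capitals mark matches on either strand to CCAAT (the CCAAT box) or GGGCGG (the GC box), and matches may overlap.
Glo1: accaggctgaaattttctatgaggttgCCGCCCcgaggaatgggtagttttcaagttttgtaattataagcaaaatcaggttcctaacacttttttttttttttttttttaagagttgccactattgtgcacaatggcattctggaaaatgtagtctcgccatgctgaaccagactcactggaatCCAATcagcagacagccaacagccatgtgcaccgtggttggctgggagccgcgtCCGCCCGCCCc
Dnah8: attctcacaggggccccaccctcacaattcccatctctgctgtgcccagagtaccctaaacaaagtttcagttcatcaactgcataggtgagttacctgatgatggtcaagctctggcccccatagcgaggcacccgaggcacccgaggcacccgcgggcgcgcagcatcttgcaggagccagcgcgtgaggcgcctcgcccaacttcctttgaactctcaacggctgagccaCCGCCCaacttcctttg
The 2 windows are separated by 13776 bases. The Glo1 window held 1 CCAAT match and 3 GC box matches, and the Dnah8 window held 0 and 1. Of 32851 RefSeq windows of the same length, 33.8% held CCAAT and 32.7% held GGGCGG. Neither window held TATAAA (the TATA box, in 12.4% of windows) or TGACNNNGC (a core of the antioxidant response element, in 10.2%). The Glo1 window had 8 CpG dinucleotides and the Dnah8 window 13, against a median of 6 over all windows. Of the 4 genes, 3 had an entry. The window of Glp1r, whose levels overlapped between the groups, had 26 CpG and 3 GC box matches. These matches describe letters only.

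Levels below are log2 RMA values, on which 1 unit is a 2-fold difference. The genes were proposed with their IIKO against WT values known, so the differences of all 4 are given as a description, with standard errors and intervals from a limma fit of every probe set with 1 symbol, and with no p-value. Glo1 and Dnah8 were higher in every IIKO array than in any WT array, while Btbd9 and Glp1r, the genes on their outer sides, overlapped between the groups.

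The brighter Glo1 probe set (10449644) was at 10.79, 10.49, 10.71 and 10.66 in WT arrays 1 to 4. In IIKO arrays 1 to 4 it was at 11.57, 11.37, 11.42 and 11.60. The lowest IIKO array stood 0.58 above the highest WT array. The group levels were 10.66 ± 0.13 and 11.49 ± 0.11 (SD, n = 4 arrays each). Glo1 was thus 0.83 ± 0.08 (log2, SE) higher in IIKO chimeras, a ratio of 1.77-fold with a 95% confidence interval of 1.57 to 2.01.

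The dimmer Glo1 probe set (10471675) gave 8.45, 8.11, 8.61 and 8.29 in the WT arrays. Its IIKO arrays were at 9.53, 9.18, 9.45 and 9.55. The groups again did not overlap, with a gap of 0.57. The difference was 1.06 ± 0.12 (SE), or 2.09-fold (1.74 to 2.50). Both sets put WT array 2 lowest among the WT arrays, IIKO array 2 lowest among the IIKO arrays and IIKO array 4 highest. They disagreed on the highest WT array, which was array 1 in the brighter set and array 3 in the dimmer set. The annotation lists the same transcripts for both, and the reference also holds a Glo1 pseudogene, Glo1-ps, on chromosome 2. Which copy each set detects is not stated in the annotation, so the 2 sets cannot be counted as independent readings of the chromosome 17 gene.

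Dnah8, a gene best known from ciliated cells and sperm, had WT levels of 9.17, 8.75, 8.79 and 9.11. Its IIKO levels were 10.31, 10.38, 10.39 and 10.43. The gap between the groups was 1.14, wider than for either Glo1 set. The WT arrays fell into a higher pair (1 and 4) and a lower pair (2 and 3), with an SD of 0.21. The IIKO arrays lay within 0.12 of each other (SD 0.05). Dnah8 differed by 1.42 ± 0.10 (log2, SE), a ratio of 2.68-fold (95% confidence interval 2.31 to 3.12). A probe set reports RNA that hybridises to its probes, and protein was not measured.

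Btbd9, the neighbour on the Glo1 side, was at 8.62, 9.20, 8.99 and 9.08 in WT arrays and at 8.96, 9.14, 9.03 and 9.31 in IIKO arrays. WT array 1 was the lowest of all and the other 7 arrays were intermixed. The difference was 0.14 ± 0.12 (SE), or 1.10-fold, with a 95% confidence interval of 0.911 to 1.33. Without WT array 1 it was 0.02.

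Glp1r, the neighbour on the Dnah8 side, was at 6.06, 6.18, 5.96 and 6.25 in WT arrays. In IIKO arrays it was at 6.04, 5.95, 6.42 and 6.05. The groups overlapped throughout, and IIKO array 3 was the highest. The difference was 0.00 ± 0.11 (SE), with a 95% confidence interval of 0.851 to 1.18 for the ratio, and it was -0.10 without IIKO array 3. Its level lay close to the lower quartile of gene levels (6.04). Background was not measured, so a difference in a transcript at this level could be understated.

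**Figure D1:**
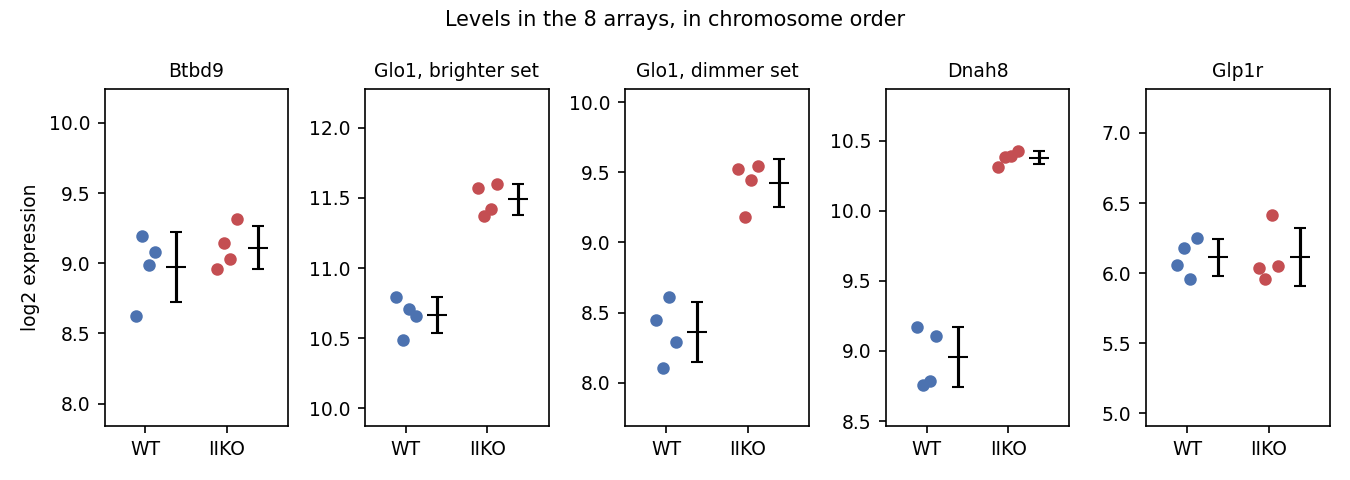
Log2 expression of Btbd9, both Glo1 probe sets, Dnah8 and Glp1r in each WT (blue) and IIKO (red) array; the black bar is the group mean and the whiskers 1 SD, and every panel spans the same number of log2 units. Glo1 and Dnah8 separate without overlap, by gaps of 0.58, 0.57 and 1.14, and the outer 2 genes overlap.

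IIKO array 3 differed from the other IIKO arrays in some class II transcripts. H2-Ab1 and H2-Aa, the chains of the class II molecule I-A, were at 8.27 and 8.06 there, within the WT ranges (7.87 to 8.39 and 7.99 to 8.30), and at 7.08 to 7.65 and 6.82 to 7.55 in the other IIKO arrays. For H2-Eb1, the E beta chain of class II, it was at 7.75, near the other IIKO arrays (7.52 to 7.58) and below every WT array (8.13 to 8.48). For Glo1 (11.42) and Dnah8 (10.39) that array stood with the other IIKO arrays. Without it, the differences were 0.85 for Glo1 and 1.42 for Dnah8. With each array left out in turn, Glo1 lay between 0.77 and 0.87 and Dnah8 between 1.36 and 1.49.

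Across all 19937 genes, limma called 57 at a Benjamini-Hochberg adjusted p under 0.05, or 0.286%, with 0.161% higher and 0.125% lower in IIKO chimeras. Glo1 and Dnah8 were 2 of them and Btbd9 and Glp1r were not, a count that the choice of the genes fixes. All IIKO arrays lay above all WT arrays for 2.83% of genes.

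The genes beyond the group were taken by position alone. Of the 20 nearest tested genes on either side, 0 of 40 passed limma's test in either direction, a count near the share of 0.286% over all genes. At an unadjusted p under 0.05, 1 was higher and 8 were lower, against 5.27% and 12% of all genes (17.3% in all). The higher one was Sik1, a salt-inducible kinase, with a difference of 0.23 ± 0.06 (SE, limma adjusted p = 0.157). The 40 had a median difference of -0.07, against -0.04 over all genes. The upper end of the 95% confidence interval was highest for Rsph1, a radial spoke protein of motile cilia, and was 0.36 or less for the other 39; Sik1, Rsph1 and, below, Pi16 were named after their values were seen. Its WT level was 7.51 ± 0.23 and its IIKO level 7.89 ± 0.40 (SD, 4 arrays each), with an interval of -0.03 to 0.78 for the difference and 8.46 in IIKO array 1. Of the 40 genes, 28 lay above the median gene level (7.10) and 1 below the lower quartile.

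On the Btbd9 side, the nearest genes were Zfand3, a zinc finger protein, Mdga1, a cell-surface glycoprotein, and Ccdc167. Zfand3 was at 8.76, 8.57, 8.62 and 8.79 in WT arrays and at 8.92, 8.71, 8.80 and 8.69 in IIKO arrays. Its difference of 0.09 ± 0.07 (SE) did not pass (limma adjusted p = 0.518). Mdga1 differed by -0.08 ± 0.05 and Ccdc167 by -0.02 ± 0.10 (limma adjusted p = 0.486 and 0.949). The groups of these 3 genes overlapped.

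On the Glp1r side, the nearest were Umodl1, a uromodulin-like protein, Abcg1, a transporter that exports cholesterol, and Tff3, a trefoil peptide of mucosal surfaces. Umodl1 differed by -0.05 ± 0.08 (SE; limma adjusted p = 0.782). Abcg1 was at 9.16, 9.06, 9.02 and 9.12 in WT arrays and at 8.64, 8.84, 8.75 and 9.01 in IIKO arrays. Every IIKO array of Abcg1 lay below every WT array, and its difference of -0.28 ± 0.08 did not pass (adjusted p = 0.167). Tff3 was likewise without overlap, at -0.17 ± 0.06 (adjusted p = 0.211). All IIKO arrays were lower for 3 of the 40 flanking genes (Abcg1, Tff3 and Pi16) and higher for 1 (Sik1), against 7.69% and 2.83% of all genes.

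**Figure D2:**
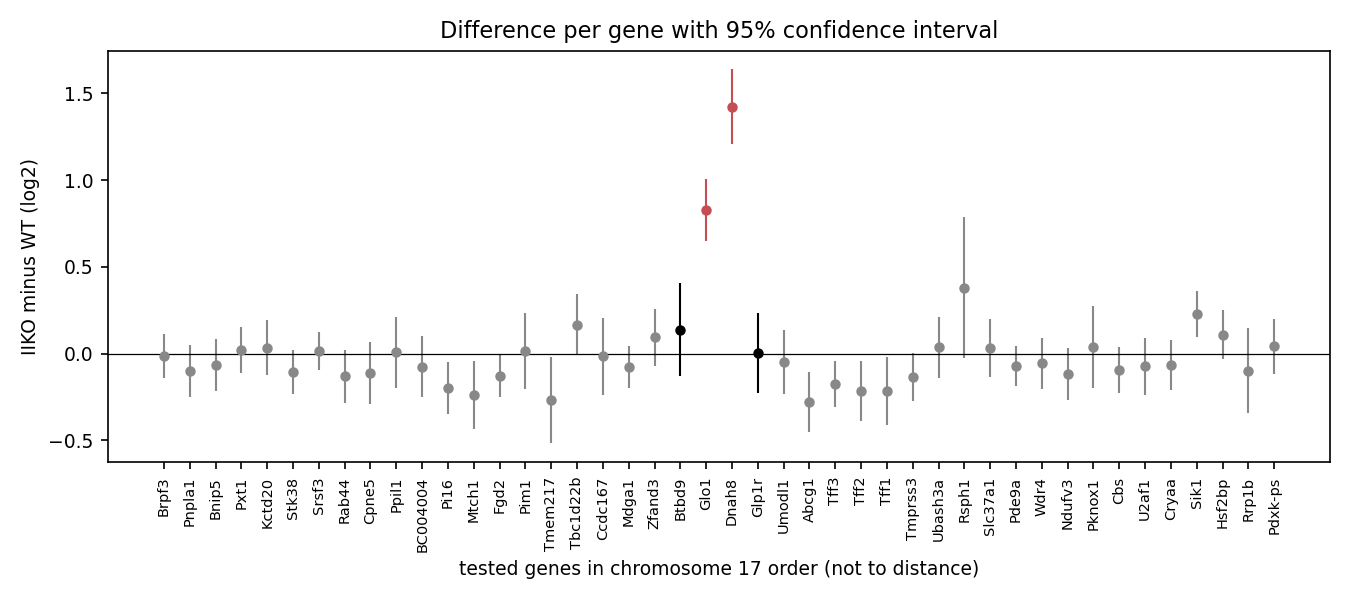
Difference between IIKO and WT chimeras (log2) with its 95% confidence interval for Btbd9, Glo1, Dnah8 and Glp1r and the 20 tested genes on either side, evenly spaced in chromosome order. Glo1 (0.83) and Dnah8 (1.42), in red, were chosen on this difference, and Btbd9 and Glp1r are black. Of the 40 flanking genes (grey), 0 passed limma's test, against 0.286% of all genes.

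Chromosome 17 held 936 tested genes, of which 1.92% passed limma's test, against 0.286% over all genes. That share counts Glo1 and Dnah8, which were chosen on this difference. With Glo1 and Dnah8 there were 11 higher and 7 lower, and without them 9 and 7. The nearest of these before Btbd9 was Pacsin1, a membrane-bending protein of endocytosis, 46 tested genes away. It was lower in IIKO chimeras, by -0.38 ± 0.06 (log2, SE; limma adjusted p = 0.0417). The nearest after Glp1r was H2-Eb1, 90 tested genes away, also lower at -0.69 ± 0.08 (adjusted p = 0.0075). Between these 2 genes, Glo1 and Dnah8 were the only calls. Just past H2-Eb1, at 93 tested genes, lay Btnl2, a butyrophilin-like protein, which was higher (0.87 ± 0.09, adjusted p = 0.0025). Farther on, H2-T24, Trim26, Ppp1r11, Znrd1, Gabbr1 and Mmut, at 181 to 263 tested genes, were higher, by 0.40 to 1.13. Past Mmut, Lclat1 was lower and Ehd3 higher. Farther from Btbd9 than Pacsin1, on that side, 1700010I14Rik, Zfp52, Zfp948 and Gnptg were lower and Zfp945 was higher. These genes, Pacsin1 and H2-Eb1 were named after their values were seen. Btnl2, Trim26 and Ppp1r11 are also among the nearest profiles below, a rule that picks genes by these same values.

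**Figure D3:**
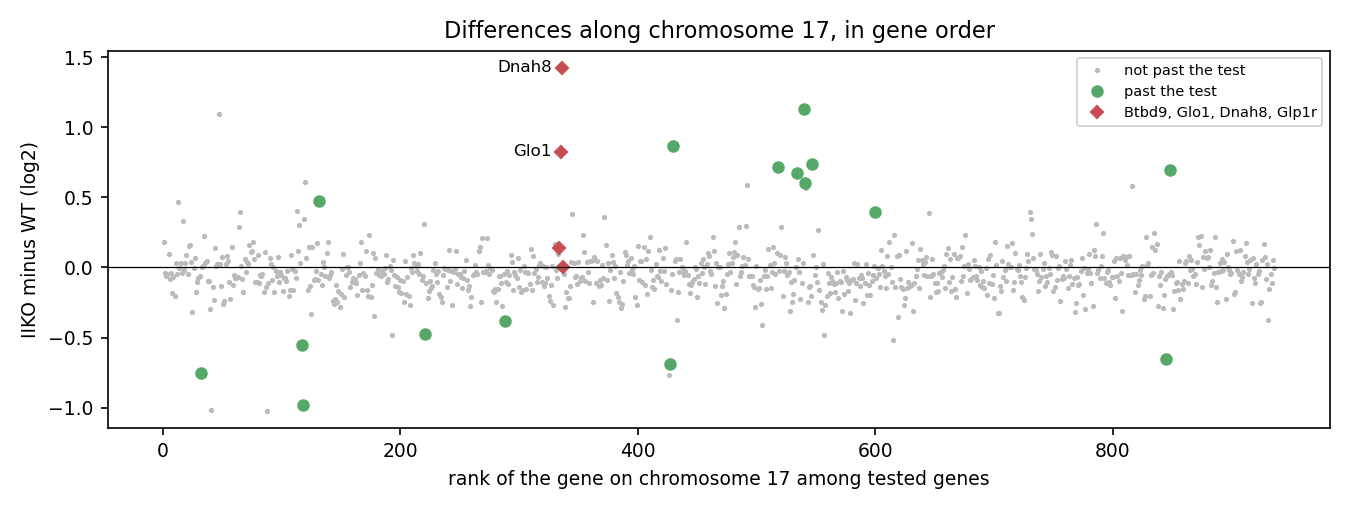
Difference between IIKO and WT chimeras (log2) for the 936 tested genes of chromosome 17, by rank in gene order; green circles mark the other 16 genes past limma's test and red diamonds the 4 neighbours. The nearest calls to the pair, both lower, are Pacsin1 46 genes before and H2-Eb1 90 genes after, and Btnl2, 93 genes after, is higher.

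Genes that work with each of the 4 were described from lists by function. None of the lists held a gene past limma's test over all genes, where 0.286% passed; the shares higher and lower at an unadjusted p under 0.05 were 5.27% and 12%. Of 21 measured genes of methylglyoxal and glutathione handling, 0 passed (3 higher and 3 lower at an unadjusted p under 0.05, or 14.3% each), with a median difference of -0.01. Nfe2l2, which encodes the antioxidant transcription factor NRF2, differed by 0.36 ± 0.09 (SE, limma adjusted p = 0.154). Aldh3a1, an aldehyde dehydrogenase, differed by -0.18 ± 0.05 (adjusted p = 0.167). The other genes at an unadjusted p under 0.05 were Gclc, which makes glutathione precursor (0.30 ± 0.10), Haghl (0.12 ± 0.05), Glod5 (-0.17 ± 0.07) and Hagh, with adjusted p from 0.212 to 0.264; these 4 were named after their values were seen. Hagh encodes glyoxalase 2, the enzyme after Glo1 in the pathway, also on chromosome 17. Its WT level was 8.06 ± 0.11 and its IIKO level 7.81 ± 0.22 (SD, 4 arrays each).

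Of 30 dynein chains and assembly factors, 0 passed (3 higher, or 10%, and 2 lower, or 6.67%, unadjusted), and the differences ran from -0.16 to 0.23 with a median of -0.05. Dync1li2 and Dync1li1, light intermediate chains of cytoplasmic dynein, differed by 0.23 ± 0.06 and 0.20 ± 0.07 (SE; limma adjusted p = 0.157 and 0.233). Dync1i2 (0.19), Dnah1 (-0.13) and Dnah17 (-0.12) were the others at an unadjusted p under 0.05, named after their values were seen.

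Of 29 measured BTB proteins, cullin 3 partners and iron-handling genes, 0 passed (1 higher, or 3.45%, and 0 lower unadjusted), with a median of 0.01. Slc40a1, the iron exporter ferroportin, differed by 0.26 ± 0.09 and Kbtbd2, a BTB adaptor, by 0.11 ± 0.05 (SE; limma adjusted p = 0.213 and 0.295). Of 23 measured genes of the glucagon receptor family and cAMP signalling, 0 passed (1 higher, or 4.35%, and 7 lower, or 30.4%, unadjusted). In this list 19 of 23 differences were negative, with a median of -0.08. Over all genes, 12546 of 19937 differences were negative, with a median of -0.04. Calcrl, the calcitonin receptor-like receptor, differed by 0.37 ± 0.09 and Arrb1, a beta-arrestin that desensitises such receptors, by -0.21 ± 0.07 (adjusted p = 0.157 and 0.195).

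**Figure D4:**
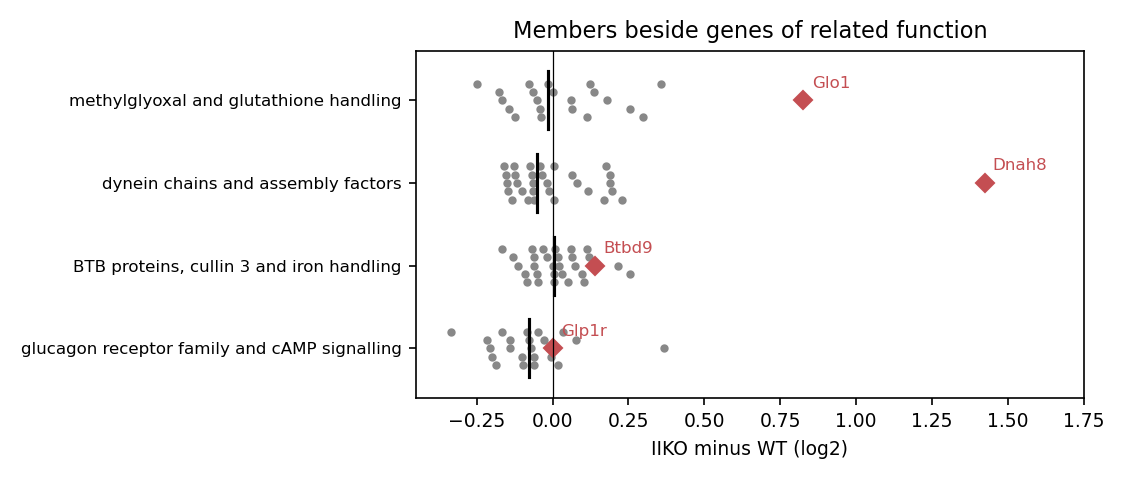
Difference between IIKO and WT chimeras (log2) of each measured gene in 4 lists of related function (grey points, spread vertically for clarity; black bar, median), beside the gene each list was built around (red diamond). The diamonds are at 0.83 for Glo1, 1.42 for Dnah8, 0.14 for Btbd9 and 0.00 for Glp1r; Glo1 and Dnah8 were chosen on this difference, so their distance from the lists is fixed by that choice.

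Profiles over the 8 arrays, each centred on its own mean, were compared by their root mean square difference, which is a description dominated by the step between the groups. The 2 Glo1 probe sets differed by 0.15 log2. Nearest to the brighter Glo1 set were Ap1s2 (0.13), Trim26 (0.13), Btnl2 (0.15), Ccdc88a (0.17) and Pde4d (0.18), of which Trim26 and Btnl2 lie on chromosome 17. Nearest to Dnah8 were Trim12c (0.17), Ppp1r11 (0.27), Spaca1 (0.28), Btnl2 (0.30) and Glo1 (0.32). That Glo1 value is of the brighter set, and the dimmer set was at 0.27; the genes were chosen for the step that sets these distances. Btbd9 and Glp1r stood 0.70 and 0.73 from Dnah8.

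The markers of the labelled cell type were present. Foxp3, which defines Tregs, had WT and IIKO levels of 10.63 ± 0.04 and 10.68 ± 0.12 (SD, 4 arrays each), and the mean of 6 Treg markers was 11.56 to 11.59 in WT arrays and 11.61 to 11.69 in IIKO arrays, without overlap. Of these 6, 0 passed limma's test, against 0.286% of all genes. At an unadjusted p under 0.05, 2 (Il2ra and Ctla4) were higher, or 33.3%, against 5.27% of all genes. All IIKO arrays were higher for 3 of the 6, against 2.83% of all genes. Of 21 measured markers of other cell types, 0 passed limma's test. Without adjustment, at p under 0.05, 0 were higher and 4 (Gzma, Cd8a, Siglech and Slc4a1) were lower. Where 12% of all genes were lower by that measure, 19% of these markers were. Their mean levels in WT and IIKO arrays were 6.01 to 6.40 and 6.16 to 6.24 for 4 B cell markers, and 6.12 to 6.32 and 6.05 to 6.36 for 7 myeloid and dendritic cell markers. For 5 CD8 and NK cell markers they were 6.55 to 6.91 and 6.42 to 6.61, led by the granzyme gene Gzma at 9.33 ± 0.71 and 8.54 ± 0.12. For 2 erythroid markers they were 7.27 to 7.47 and 6.87 to 7.40, and for 3 mast cell and basophil markers 5.11 to 5.29 and 5.01 to 5.23. The part of these markers in the levels of Glo1 and Dnah8 was not tested. In sorted bulk RNA, more cells that transcribe a gene and more RNA per cell cannot be told apart.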

How the data were processed

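RNA of sorted Tregs was measured on 8 arrays, grouped by sample titles. The deposited log2 values hold 1 expression estimate per probe set. Per the submitters' processing notes the authors used affy and RMA, with no version stated. RMA removes background, equalizes array quantiles and summarizes probes. Array medians were 6.96 to 7.03, and precision is limited by the number of arrays. Over the 28 pairs of arrays, gene-wise differences had an SD of at least 0.18, so no array held a copy of another's values. Whether any arrays shared RNA or mice cannot be told from this.

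Of 34760 probe sets, 21640 had 1 gene symbol in the platform annotation, 1321 several and 11799 none; only those with 1 were used. A gene with several sets was represented by the one with the highest mean (19937 genes). Gene order came from GRCm38.p6 (19855 genes with a position); the array annotation names no build. The contrast, IIKO minus WT, was fitted with limma 3.58.1 in R 4.3.3 (6 residual degrees of freedom), with two-sided tests and Benjamini-Hochberg adjusted p-values over every gene, and was tested on simulated data. Same-numbered arrays of the groups had deviations correlated at 0.04, -0.01, -0.07 and 0.22, so they were not treated as pairs. These values cannot exclude a pairing.

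The members and lists were chosen with earlier results of these data known. Named genes are the members, the 3 nearest tested genes on either side, list genes past the threshold and the 2 with the smallest p, the 5 nearest profiles and label checks; others are marked in the text. Alternatives were another normalization, filter, variance model, probe set rule, block, threshold or flank width, and each array left out. Of the 138 listed genes, 8 had no probe set of 1 symbol and were not analysed here. Figures used Python 3.11.15 and matplotlib 3.10.9.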

Additional observations from a re-analysis of the deposited data

Results flagged for a closer look

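Among the named genes, 64 groups of 4 arrays were checked for an array far from the others, and 5 were found, where chance gives about 1 in 20. H2-Ab1 was at 7.87 in WT array 2, against 8.30 to 8.39 in the other WT arrays. Calcrl was at 9.13 in IIKO array 3, against 9.28 to 9.31. Arrb1 was at 7.52 in WT array 2, against 7.73 to 7.77. Ccdc88a was at 7.63 in IIKO array 2, against 7.41 to 7.44. Mdga1 was at 6.62 in IIKO array 3, with the other IIKO arrays at 6.53. None of these was a probe set of Glo1, Dnah8, Btbd9 or Glp1r.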

How the results depend on the processing

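The Glo1 difference ran from 0.77 to 1.06 over its alternatives and was 1.06 when the dimmer probe set stood for the gene, which exceeds the spread between replicates; the cause was not tested. Dnah8 ran from 1.36 to 1.49, Btbd9 from 0.02 to 0.21 and Glp1r from -0.10 to 0.08; Glp1r was too dim for the fit of brighter genes alone. Among the 40 flanking genes, 0 passed limma's test under each of 19 alternatives, including 10 or 40 genes on either side. In each of the 4 lists of related function, 0 passed under 17 alternatives. With 0.286% of all genes past the test as reported, 0 is a likely count for sets of this size. The count over all genes, 57, ran from 21 to 81: it was 21 at a threshold of 0.01, between 32 and 50 with each array left out and 81 after median centring of the arrays. It was 31 with the replicate number as a block, and the block changed no count of flanking or list genes. Only 2 of 8 arrays, both of replicate 4, correlated best with their own number, which neither shows nor excludes a pairing. The number of arrays and an unmeasured background limit what could be seen in dim genes such as Glp1r.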
